A study of Homo sapiens with 18 samples.

Results

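The 9 genes described here encode enzymes of nucleotide synthesis: PPAT, PAICS, GART and ATIC of the purine pathway, IMPDH1 and IMPDH2 of guanine nucleotide synthesis, CAD and UMPS of the pyrimidine pathway, and TYMS, which makes thymidylate. They were taken by symbol from the gene tables of the series, which hold 23686 symbols, and all 9 had enough reads to be tested in every comparison. RNA was sequenced from OCI-Ly1 and TMD8, established lines of human diffuse large B-cell lymphoma, a cancer of mature B cells. The 3 treatments of each line were vehicle (0.01% DMSO) and JIB-04 at 150 nM or 500 nM. JIB-04 is a small-molecule inhibitor of Jumonji-domain histone demethylases. OCI-Ly1 is a germinal-centre type of this lymphoma grown in IMDM, and TMD8 an activated-B-cell type grown in RPMI, so line and medium changed together. Each of the 6 groups had 3 libraries, prepared as technical replicates. The labels do not say whether separate cultures lay behind them, so every p-value here measures the spread between libraries, which may be technical. No treatment time is given.

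Cells build purines on phosphoribosyl pyrophosphate (PRPP), step by step, until inosine monophosphate (IMP) is formed, and then convert IMP to adenine or guanine nucleotides. The pyrimidine pathway first builds the ring and then joins it to PRPP to give UMP, from which the other pyrimidines derive. Dividing lymphocytes rely strongly on these pathways, and several of the enzymes are drug targets: mycophenolate inhibits IMP dehydrogenase, and fluoropyrimidines inhibit thymidylate synthase. The transcription factor MYC is known to bind and activate many of these genes through the E-box CACGTG.

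The sequences just upstream of 4 of the genes show the layout that the later results refer to. RefSeq promoter windows on GRCh38.p14 (250 bases before to 50 after an annotated start) were found for 8 of the 9 symbols, IMPDH2 being the one without an entry, and some genes had several starts, giving 12 windows. The 250 bases before the start are printed for PPAT, whose neighbour PAICS starts within them on the opposite strand, for ATIC, which changed most in OCI-Ly1, for CAD, whose changes were closest to those of PPAT, and for TYMS, which moved apart from the others. Capitals mark the E-box CACGTG in PPAT and ATIC and an E2F-type match (TTCCCGC or TTGGCGC on either strand) in TYMS.
PPAT, chr4:56435616-56435865, minus strand: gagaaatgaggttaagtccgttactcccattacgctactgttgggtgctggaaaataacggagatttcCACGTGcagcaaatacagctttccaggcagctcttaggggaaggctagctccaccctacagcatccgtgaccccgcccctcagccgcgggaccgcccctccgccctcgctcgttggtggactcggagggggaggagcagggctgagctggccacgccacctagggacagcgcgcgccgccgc
ATIC, chr2:215311809-215312058, plus strand: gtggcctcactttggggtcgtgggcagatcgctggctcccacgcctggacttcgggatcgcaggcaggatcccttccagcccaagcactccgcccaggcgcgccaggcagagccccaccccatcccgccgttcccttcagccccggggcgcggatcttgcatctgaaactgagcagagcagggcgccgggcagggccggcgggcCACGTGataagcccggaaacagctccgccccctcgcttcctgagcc
CAD, chr2:27217119-27217368, plus strand: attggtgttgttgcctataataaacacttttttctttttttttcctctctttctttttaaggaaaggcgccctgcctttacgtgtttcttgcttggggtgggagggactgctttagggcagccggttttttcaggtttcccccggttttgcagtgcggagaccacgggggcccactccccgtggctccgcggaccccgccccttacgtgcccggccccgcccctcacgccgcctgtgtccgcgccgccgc
TYMS, chr18:657403-657652, plus strand: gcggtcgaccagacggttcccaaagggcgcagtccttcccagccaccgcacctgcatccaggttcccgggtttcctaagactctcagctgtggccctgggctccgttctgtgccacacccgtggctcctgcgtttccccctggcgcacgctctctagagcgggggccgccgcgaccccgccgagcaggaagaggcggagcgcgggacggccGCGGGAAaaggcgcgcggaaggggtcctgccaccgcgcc

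The annotated start of PPAT lay 137 bases from the nearest start of PAICS, and their windows shared 236 bases, including the same CACGTG, 182 to 177 bases before the PPAT start and at positions 41 to 46 from the PAICS start. ATIC held CACGTG 46 to 41 bases before its start and again at positions 30 to 35 after it. Of the 12 windows, 3 held CACGTG, belonging to these 3 genes, against 7.26% of all 35116 windows in the table. The PPAT and PAICS windows held it at the same site. The E2F-type letters were found in 3 of the 12 windows, belonging to TYMS, GART and PAICS, and in 9.23% of all windows. The ATF4-type letters TGATGNAA were in none of the 12 windows and in 3.62% of all. Both strands were searched, and the motifs overlapped at no site in these windows. A match is a description of letters only, and neither binding nor histone marks were analysed here.

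OCI-Ly1 libraries held 17579732 to 32651115 estimated counts and TMD8 libraries 9550092 to 20509500, and the 9 genes took between 0.141% and 0.213% of the counts of a library. The B-cell markers MS4A1, CD79A, CD79B, CD22 and PAX5 were at or above 1 TPM in every library of both lines. TPM is a transcript level scaled for length, set to sum to 1000000 in each library. Myeloid markers stayed under 1 TPM throughout, and the T-cell marker CD3G reached a mean of 11.4 TPM in OCI-Ly1. The epithelial markers summed to between 14.4 and 19.8 TPM over all libraries. At 500 nM 3 of the 4 T-cell markers were called lower in OCI-Ly1, where 25.9% of all genes were. CD3D was at -1.38 and CD3G at -1.13 on the log2 scale. There 2 of the 4 epithelial markers were also called lower, EPCAM at -0.71 and CDH1 at -0.78. In TMD8 the fibroblast marker COL1A1 rose from 3.50 ± 0.408 to 29.8 ± 0.366 CPM (SD, n = 3). The summed TPM of 4 proliferation markers ranged in TMD8 over 327 to 429 with DMSO and 211 to 239 at 500 nM. In OCI-Ly1 the ranges were 940 to 1073 and 1015 to 1057, although 2 of the 4, MKI67 and TOP2A, were called lower there. Their part in the results below was not tested. In bulk RNA, a lower level per cell and a smaller share of cells expressing a gene cannot be told apart.

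With DMSO, IMPDH2 was the most abundant of the 9 transcripts per length in both lines and UMPS the least. In OCI-Ly1 the order was IMPDH2 at 296.6 ± 6.64 TPM (SD, n = 3), PAICS at 163.5 ± 13.4, GART at 147.4 ± 1.94, IMPDH1 at 55.7 ± 1.51, CAD at 43.5 ± 1.67, ATIC at 40.98 ± 1.97, PPAT at 29.7 ± 1.78, TYMS at 24.2 ± 1.27 and UMPS at 9.94 ± 0.351. CAD and ATIC were the only neighbours in this order whose libraries overlapped. In TMD8 the order was IMPDH2 at 142.3 ± 18.2 TPM, PAICS at 110.4 ± 12.5, TYMS at 102.6 ± 11.8, ATIC at 81.7 ± 15.0, GART at 49.2 ± 5.70, IMPDH1 at 43.5 ± 3.62, CAD at 42.6 ± 4.27, PPAT at 17.9 ± 2.32 and UMPS at 7.33 ± 0.512. Between PAICS and TYMS, TYMS and ATIC, GART and IMPDH1, and IMPDH1 and CAD the libraries overlapped, whereas PAICS and ATIC were apart. PAICS was above TYMS and TYMS above ATIC within each of the 3 libraries. Within the TMD8 DMSO group the first library had the highest TPM of each of the 9 genes, with a sum of 682.1 TPM against 558.4 and 551.8 in the other libraries of that group.

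The lines differed most in TYMS and ATIC on normalised read counts, whereas on TPM GART and IMPDH2 differed more than ATIC. With DMSO on log2(TPM + 1), OCI-Ly1 against TMD8 gave -2.04 for TYMS, 1.06 for IMPDH2 and -0.97 for ATIC. GART differed by 1.59 on log2(TPM + 0.1). On normalised read counts, TYMS was lower in OCI-Ly1 than in TMD8 by a log2 difference of -3.05 ± 0.07 (SE; edgeR adjusted p = 4.2e-24) and ATIC by -1.95 ± 0.09 (adjusted p = 3e-17), while GART was higher by 0.69 ± 0.05 (adjusted p = 1.6e-12). In all, 7 genes were lower and 1 higher in OCI-Ly1, against 39.0% and 37.8% of the 16604 genes tested. PPAT, PAICS, IMPDH1, CAD and UMPS were also lower in OCI-Ly1 on this scale but had higher mean TPM there. The median gene was 0.61 higher in OCI-Ly1 on log2(TPM + 1), with 11296 genes called higher and 2906 lower, against -0.02 on normalised counts. For these 5 the direction between lines thus depends on the scaling. After centring each library on its median, PAICS, IMPDH1, CAD and UMPS were still called lower, and PPAT was at -0.02 (limma adjusted p = 0.83).

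At 150 nM JIB-04 the 9 genes fell in TMD8, and none was called in OCI-Ly1. Here a gene is called at an edgeR adjusted p under 0.05, adjusted over all genes tested. In TMD8 all 9 were called lower, against 25.0% of the 15363 genes tested, and 0 higher, against 19.2%, and the groups of all 9 did not overlap, against 51.4%. Their median log2 fold change was -0.33, beside 0.01 over all genes tested. On log2(TPM + 1) limma also called 9 lower, where 4183 of all genes were lower and 1129 higher. In OCI-Ly1, 0 of 9 were called, at a dose where 0.889% of 15638 genes were, and for 3 genes the groups did not overlap, against 14.0%. At an unadjusted p under 0.05, only IMPDH1 passed in OCI-Ly1. Its log2 fold change of -0.22 ± 0.06 had an adjusted p of 0.14, which became 0.036 (log2 fold change -0.26) without the first 150 nM library. DESeq2 also called none of the 9 there.

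At 500 nM, 8 of the 9 genes were called lower and 1 higher in TMD8, where 30.7% and 29.9% of all genes were. All 9 groups were clear of DMSO, against 66.4% of genes. In OCI-Ly1, 5 were called lower and 0 higher, where 25.9% and 27.7% of all genes were, and 6 groups were clear of DMSO, against 60.7%. The median log2 fold change of the 9 was -0.59 in TMD8 and -0.28 in OCI-Ly1, beside 0.04 and 0.00 over all genes. On log2(TPM + 1), where the median gene moved by -0.22 in TMD8 and 0.10 in OCI-Ly1, 9 were called lower and 0 higher in TMD8, and 5 lower and 1 higher (TYMS) in OCI-Ly1 (limma). Over all genes the calls on that scale were 7581 lower and 1751 higher in TMD8 and 2240 lower and 5739 higher in OCI-Ly1. Relative to the median gene, the median of the 9 was then -0.72 in TMD8 and -0.27 in OCI-Ly1, beside -0.63 and -0.28 on normalised counts. Both doses of a line were set against the same DMSO libraries. The plots of normalised counts and of fold changes show these values gene by gene.

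**Figure D1:**
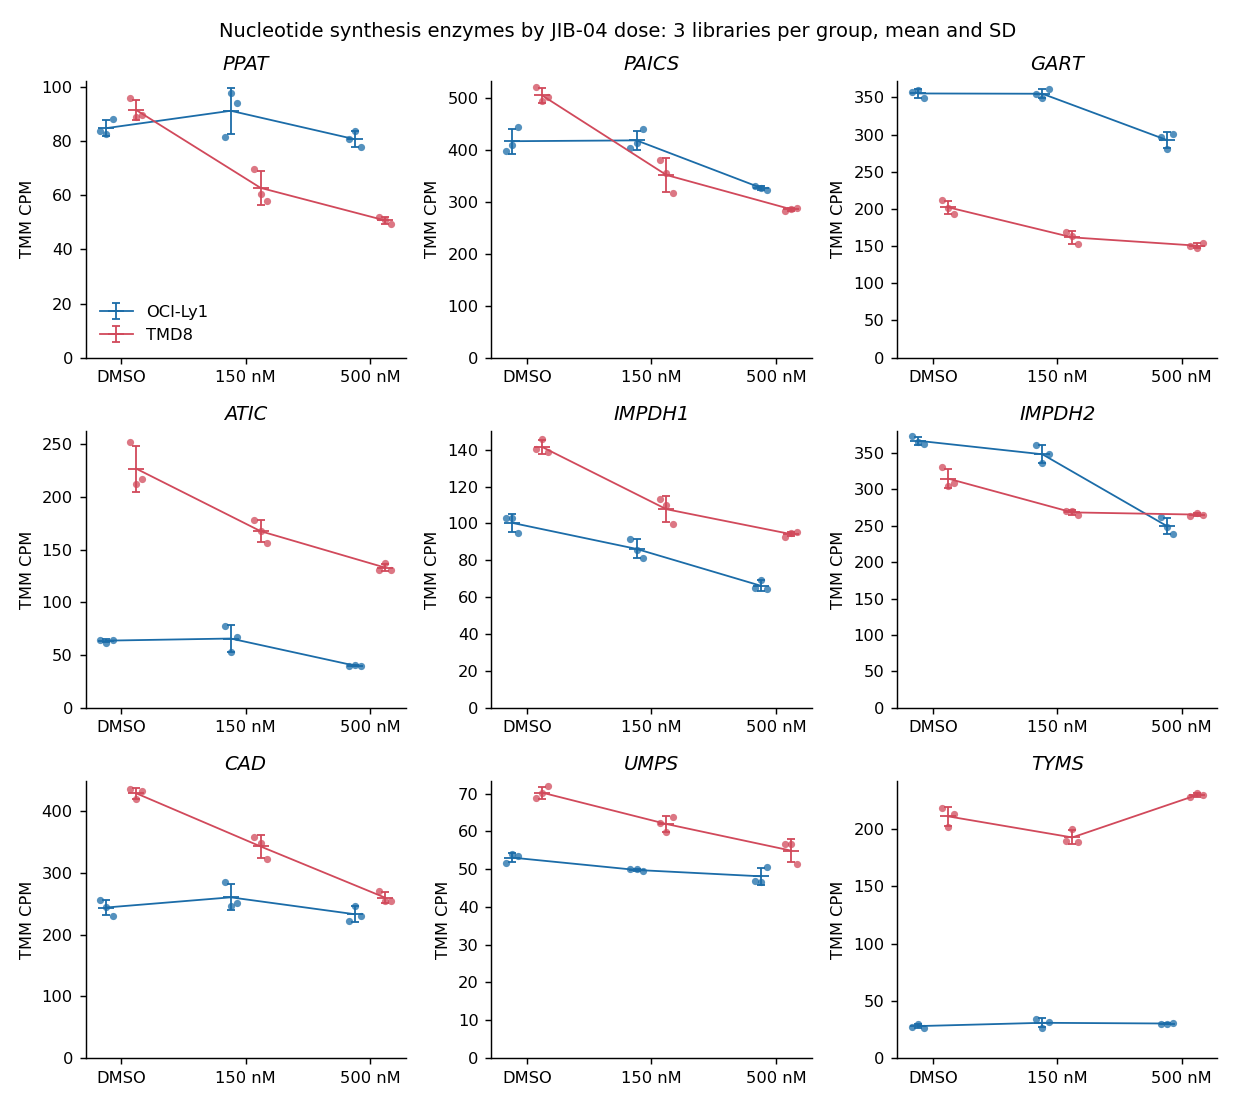
Normalised read counts (CPM, TMM-scaled) of each of the 9 genes on the vertical axis against JIB-04 dose, with 3 libraries per group as points and the mean with SD as the line and bars, OCI-Ly1 in blue and TMD8 in red. In TMD8 PPAT drops from 91.5 to 50.7 CPM between DMSO and 500 nM, whereas in OCI-Ly1 its 500 nM mean of 80.7 CPM lies near the DMSO mean of 84.8.

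PPAT, the amidotransferase of the first committed purine step, separated the lines most. CPM here is reads per 1000000 of the TMM-scaled library. In TMD8 its 3 libraries were at 95.9, 89.0 and 89.5 CPM with DMSO, at 69.9, 60.4 and 57.8 at 150 nM and at 51.8, 50.8 and 49.5 at 500 nM. In OCI-Ly1 they were at 83.7, 82.6 and 88.1 CPM with DMSO, at 81.7, 97.9 and 94.0 at 150 nM and at 80.7, 83.6 and 77.7 at 500 nM. The 3 groups were fully separated in TMD8, and in OCI-Ly1 each treated group overlapped DMSO. PPAT fell by 31.6% at 150 nM and by 44.5% at 500 nM in TMD8 (edgeR adjusted p = 2e-06 and 3.8e-09). In OCI-Ly1 its log2 fold change at 500 nM was -0.07, with a 95% interval from -0.21 to 0.07 (adjusted p = 0.37), and its sign turned to 0.06 on log2(TPM + 1).

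PAICS encodes the enzyme of the sixth and seventh purine steps and lies beside PPAT in the genome. In TMD8 its libraries were at 520.9, 493.4 and 501.6 CPM with DMSO, at 381.3, 356.2 and 317.8 at 150 nM and at 283.3, 285.4 and 288.9 at 500 nM. In OCI-Ly1 they were at 397.6, 409.1 and 444.1 with DMSO, at 402.9, 413.0 and 439.6 at 150 nM and at 330.3, 327.4 and 323.3 at 500 nM. The 500 nM libraries were thus below all DMSO libraries in both lines, and the 150 nM libraries only in TMD8. At 500 nM PAICS fell by 43.4% in TMD8 (edgeR adjusted p = 1.2e-09) and by 21.6% in OCI-Ly1 (adjusted p = 1.6e-05).

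The PAICS and PPAT transcripts, whose starts face away from each other across 137 bases, were compared within each library. In TMD8 the ratio of PAICS to PPAT TPM was 6.19 ± 0.101 (SD, n = 3) with DMSO, 6.29 ± 0.273 after 150 nM and 6.32 ± 0.208 after 500 nM, and the groups overlapped. In OCI-Ly1 it was 5.33, 5.55 and 5.65 in the DMSO libraries and 4.59, 4.39 and 4.66 at 500 nM. Those groups did not overlap, with a mean log2 difference of -0.28 (two-sided exact permutation p = 0.1, the smallest that 3 against 3 libraries allow). At 150 nM the OCI-Ly1 libraries, at 5.53, 4.72 and 5.24, overlapped DMSO.

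GART, a multifunctional enzyme of early and middle purine steps, fell in both lines at 500 nM. Its mean in TMD8 was 202.3 ± 8.92 CPM (SD, n = 3) with DMSO, 161.7 ± 8.23 at the lower dose and 150.6 ± 3.46 at the higher. The OCI-Ly1 means were 355.2 ± 5.74, 354.8 ± 5.99 and 292.6 ± 10.5 CPM. Against DMSO, 500 nM lowered it by 25.6% in TMD8 and by 17.6% in OCI-Ly1 (edgeR adjusted p = 9.4e-07 and 5.6e-05). In TMD8, 500 nM against 150 nM gave -0.10 ± 0.05 (adjusted p = 0.15), or -0.16 (adjusted p = 0.023) without the third 150 nM library. It was also called without a low-count filter (-0.14, adjusted p = 0.047) and by limma on log2(TPM + 1), at -0.32 (adjusted p = 0.03) or, centred, -0.16 (0.033).

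ATIC, which carries out the last purine steps to IMP, showed the largest fall of the 9 in OCI-Ly1. Its OCI-Ly1 libraries were at 64.5, 61.7 and 64.7 CPM with DMSO, at 77.5, 52.7 and 66.7 at 150 nM and at 39.8, 40.5 and 39.4 at 500 nM. The 150 nM group was the widest of any OCI-Ly1 group for this gene and spanned DMSO, while 500 nM lay clear below it. In TMD8 the libraries were at 251.6, 212.1 and 216.4 CPM with DMSO, at 177.9, 167.9 and 156.6 at 150 nM and at 130.7, 136.9 and 131.0 at 500 nM, with no overlap between groups. The fall at 500 nM was 37.4% in OCI-Ly1 (edgeR adjusted p = 1.4e-05) and 41.3% in TMD8 (adjusted p = 1.1e-08).

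PFAS and ADSL, the remaining enzymes of the 6 on the purine list, completed the set. In TMD8 at 500 nM all 6 were called lower, with PFAS at -0.68 and ADSL at -0.67 on the log2 scale. In OCI-Ly1 4 of the 6 were called lower, ADSL at -0.33 (edgeR adjusted p = 0.0001), while PFAS at -0.14 (adjusted p = 0.083) and PPAT were not. Of all genes, 30.7% were called lower in TMD8 and 25.9% in OCI-Ly1. The list median was -0.72 in TMD8 and -0.31 in OCI-Ly1, beside all-gene medians of 0.04 and 0.00.

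IMPDH1 and IMPDH2, paralogs that oxidise IMP on the way to guanine nucleotides, fell in both lines, with a different balance. IMPDH2 in OCI-Ly1 was at 373.1, 364.7 and 362.3 CPM with DMSO, at 360.4, 336.2 and 347.8 at 150 nM and at 261.4, 248.3 and 239.0 at 500 nM. In TMD8 it was at 330.1, 305.2 and 308.9 with DMSO, at 270.2, 270.0 and 264.5 at 150 nM and at 262.8, 267.8 and 265.4 at 500 nM. The TMD8 libraries of the treated groups overlapped each other and lay below DMSO, whereas the large step in OCI-Ly1 lay between 150 and 500 nM. IMPDH2 at 500 nM fell by 31.9% in OCI-Ly1 and by 15.7% in TMD8 (edgeR adjusted p = 3.6e-08 and 0.00013). Between the TMD8 doses it changed by -0.02 on the log2 scale, with a 95% interval from -0.11 to 0.08 (adjusted p = 0.84).

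IMPDH1 fell in both lines at 500 nM. In OCI-Ly1 its libraries were at 103.2, 103.0 and 94.6 CPM with DMSO, at 91.6, 85.5 and 81.4 at 150 nM and at 64.8, 69.5 and 64.2 at 500 nM. In TMD8 they were at 140.2, 145.9 and 138.5, then 113.3, 109.8 and 99.95, then 92.8, 94.6 and 95.2. No groups overlapped in either line. The fall at 500 nM was 34.0% in OCI-Ly1 and 33.5% in TMD8 (edgeR adjusted p = 2.8e-07 and 2.1e-08). The difference between the lines was 0.02, with a 95% interval from -0.16 to 0.19. On log2(TPM + 1), where the median gene differed by 0.38, that difference was 0.48 (limma adjusted p = 0.00088), and it was not called after centring each library. The fall of IMPDH1 from 150 to 500 nM in TMD8 was -0.19 (adjusted p = 0.01), and lost the call at adjusted p = 0.052 without the first 150 nM library and at 0.051 without the first 500 nM library.

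The ratio of IMPDH2 to IMPDH1 transcripts, in TPM, was 3.45, 3.07 and 3.27 in the TMD8 libraries with DMSO. After 150 nM it was 3.50, 3.61 and 3.89, and after 500 nM 4.17, 4.16 and 4.12. None of these groups overlapped (exact permutation p = 0.1 for each dose against DMSO, the smallest possible). In OCI-Ly1 it was 5.27, 5.15 and 5.58 with DMSO, 5.75, 5.74 and 6.23 after 150 nM and 5.92, 5.25 and 5.46 after 500 nM. There the 150 nM group lay above DMSO (mean log2 difference 0.15, exact permutation p = 0.1), beside 0.17 in TMD8 at that dose, and the 500 nM group overlapped DMSO (0.06, exact permutation p = 0.6). With the counts of both genes added, 500 nM gave log2 fold changes of -0.57 (OCI-Ly1) and -0.34 (TMD8). The paralogs are similar in sequence, and whether reads were assigned to the right one was not tested. Their deposited counts were within 0.01 of whole numbers in 18 of 18 libraries, as were those of PPAT, ATIC and CAD. The same held in 3 libraries for GART, 1 for PAICS and 0 for UMPS and TYMS.

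**Figure D2:**
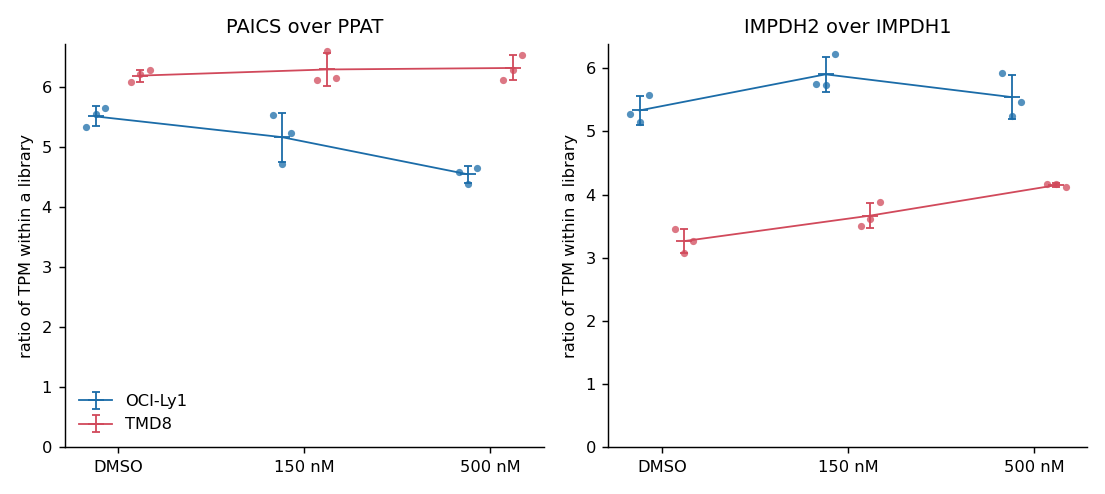
Ratio of TPM within each library (vertical axis) against JIB-04 dose for PAICS over PPAT and IMPDH2 over IMPDH1, with 3 libraries per group as points, mean and SD as lines and bars, OCI-Ly1 in blue and TMD8 in red. The mean of PAICS over PPAT in OCI-Ly1 is 5.51 with DMSO and 4.54 at 500 nM, and that of IMPDH2 over IMPDH1 in TMD8 is 3.26 and 4.15.

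GMPS, which completes GMP, fell in both lines at 500 nM, as the IMP dehydrogenases did. On the list of enzymes from IMP to AMP and GMP, 5 of 6 tested were called lower at 500 nM in OCI-Ly1 and 6 of 7 in TMD8. Over all genes, 25.9% were called lower and 27.7% higher in OCI-Ly1, and 30.7% and 29.9% in TMD8. GMPS was at -0.44 in OCI-Ly1 and -0.59 in TMD8. The exception called higher was ADSSL1 in TMD8, the muscle-type adenylosuccinate synthetase, which rose from 0.238 ± 0.105 to 1.82 ± 0.368 CPM (SD, n = 3), a low level throughout.

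CAD, the multifunctional enzyme that opens pyrimidine synthesis, fell with dose in TMD8 and was not called against DMSO in OCI-Ly1. Its TMD8 libraries were at 435.5, 419.4 and 432.6 CPM with DMSO, at 357.8, 349.1 and 321.9 at 150 nM and at 270.1, 254.4 and 255.1 at 500 nM, with all 3 groups apart. The OCI-Ly1 libraries were at 256.3, 244.9 and 230.6 with DMSO, at 284.6, 245.7 and 250.8 at 150 nM and at 221.4, 247.1 and 230.2 at 500 nM, and both treated groups overlapped DMSO. The change at 500 nM was a fall of 39.4% in TMD8 (edgeR adjusted p = 1.1e-09). In OCI-Ly1 the log2 fold change was -0.07, with a 95% interval from -0.20 to 0.06 (adjusted p = 0.38), and its sign turned to 0.07 on log2(TPM + 1).

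UMPS, which converts orotate to UMP, was the least abundant of the 9 per length and fell at both doses in TMD8. Its TMD8 mean was 70.3 ± 1.59 CPM (SD, n = 3) with DMSO, 61.98 ± 2.01 at the lower dose and 54.9 ± 3.02 at the higher, falling by 11.8% and 21.6% (edgeR adjusted p = 0.0097 and 2.1e-05). In OCI-Ly1 it was at 53.1 ± 1.24, 49.8 ± 0.328 and 48.1 ± 2.26 CPM. There 500 nM gave -0.14 ± 0.06 (adjusted p = 0.055), although the 3 libraries at 500 nM were all below the DMSO libraries. On log2(TPM + 1) it was 0.00, and after centring each library -0.23 (limma adjusted p = 0.0073). Leaving out the third 500 nM library of OCI-Ly1 gave -0.18 (adjusted p = 0.036), and leaving out the second 150 nM library of TMD8 took the 150 nM change to -0.16 (adjusted p = 0.054). With library size as the only scaling that change was -0.10 (adjusted p = 0.15).

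On the pyrimidine list of 6 genes, 4 were called lower at 500 nM in OCI-Ly1 and 5 in TMD8, with none higher. The shares of all genes were 25.9% lower and 27.7% higher in OCI-Ly1, and 30.7% and 29.9% in TMD8. DHODH, the mitochondrial enzyme between CAD and UMPS, was at -0.28 in OCI-Ly1 and -0.50 in TMD8, and CTPS1, which makes CTP, at -0.28 and -0.47. The 4 called in OCI-Ly1 were DHODH, CTPS1, CTPS2 and CMPK1, so there CAD and UMPS were the 2 members without a call. With library size as the only scaling or on log2(TPM + 1), the OCI-Ly1 calls of DHODH, CTPS2 and CMPK1 were lost (adjusted p from 0.062 to 0.65).

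TYMS, which methylates dUMP to dTMP, did not follow the other genes. Its TMD8 libraries were at 218.5, 202.2 and 212.9 CPM with DMSO, at 189.5, 199.7 and 188.8 at 150 nM and at 228.0, 231.5 and 229.5 at 500 nM. In OCI-Ly1, where the gene is low, they were at 27.2, 30.1 and 26.2, then 33.9, 26.5 and 31.7, then 29.8, 29.9 and 30.6. In TMD8 the 150 nM libraries lay below DMSO and the 500 nM libraries above it, and in OCI-Ly1 the groups overlapped. In TMD8, 150 nM gave a log2 fold change of -0.13 ± 0.05 and 500 nM one of 0.12 ± 0.05 (edgeR adjusted p = 0.026 and 0.03). Between the doses it was 0.25 ± 0.05 (edgeR adjusted p = 0.00052), a step still called in 14 of 16 alternatives. On log2(TPM + 1), where the median gene moved by -0.14 between the doses, this step was 0.03 (limma adjusted p = 0.83).

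The rise of TYMS at 500 nM depended on the scale and on single libraries. On log2(TPM + 1) it was -0.25 (limma adjusted p = 0.041), with libraries at 116.2, 94.6 and 97.0 TPM with DMSO and 79.7, 87.2 and 90.8 at 500 nM. On that scale the median gene fell by 0.22 in the same comparison, and after centring each library on its median the change was 0.00 (adjusted p = 0.95). The call was also lost without DMSO library 2 or 3 or any 1 of the 500 nM libraries (adjusted p from 0.06 to 0.16), and the 150 nM call without DMSO library 3 or 150 nM library 1 or 3 (0.056 to 0.17) or with library size as the only scaling (0.34).

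ENOSF1 overlaps TYMS on the opposite strand, and reads of the overlap cannot be assigned without strand. TYMS counts were whole numbers in 0 of 18 libraries, and those of ENOSF1 in 1, within 0.01; kallisto divides a read among the transcripts it is compatible with. ENOSF1 in TMD8 went from 102.3 ± 1.19 CPM (SD, n = 3) with DMSO to 86.6 ± 6.92 at 500 nM, a log2 fold change of -0.24 (edgeR adjusted p = 0.0014). With the counts of both genes added, the 500 nM change was 0.01 (adjusted p = 0.83) and the 150 nM change -0.13 (adjusted p = 0.029).

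**Figure D3:**
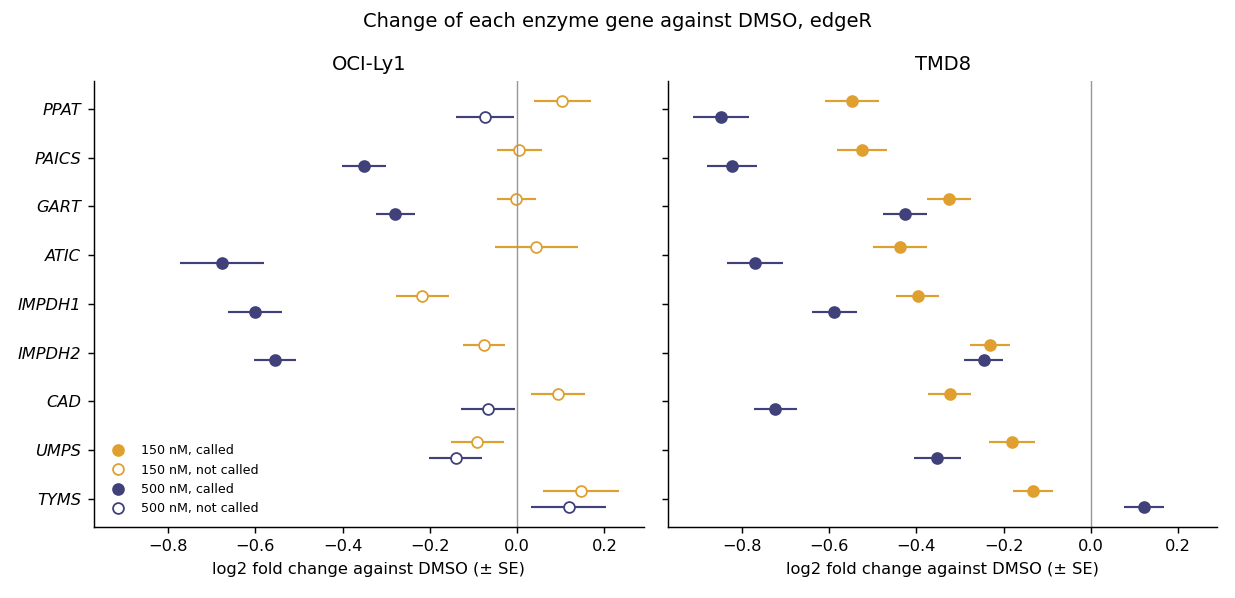
Log2 fold change against DMSO with SE (horizontal axis) for each of the 9 genes, OCI-Ly1 left and TMD8 right, 150 nM in yellow and 500 nM in blue; filled points passed the edgeR adjusted p threshold of 0.05. In TMD8 all but TYMS at 500 nM lie left of 0, from -0.85 for PPAT to -0.13 for TYMS at 150 nM (TYMS at 500 nM turns to -0.25 on log2(TPM + 1)), while in OCI-Ly1 5 genes at 500 nM do so with a call.

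Within TMD8, raising the dose from 150 to 500 nM lowered 6 of the 9 genes further and raised TYMS, against 15.0% of all genes lower and 13.7% higher. CAD moved most, at -0.40 ± 0.05 (edgeR adjusted p = 1.7e-05), followed by ATIC at -0.33, PPAT and PAICS at -0.30, IMPDH1 at -0.19 and UMPS at -0.17. The call of UMPS was lost without the first 150 nM library (adjusted p = 0.067) or the third 500 nM library (0.14).

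The same step in OCI-Ly1 lowered 7 of the 9, against 21.1% of all genes. ATIC at -0.72 and IMPDH2 at -0.48 moved most, and PPAT at -0.18 and CAD at -0.16 were called (edgeR adjusted p = 0.035 and 0.041) although their libraries overlapped. Those 2 calls rested on single libraries: PPAT lost its own without 150 nM library 2 or 3 or 500 nM library 1 or 3 (adjusted p from 0.076 to 0.17), and CAD without 150 nM library 1 or 500 nM library 1 or 3 (0.1 to 0.16). Both were also lost with library size as the only scaling (0.23 and 0.31).

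The difference between the lines was tested directly, by subtracting the TMD8 change from the OCI-Ly1 change, in a fit of all 18 libraries. At 150 nM it was positive, meaning a smaller fall or a larger rise in OCI-Ly1, and called for 6 of the 9, against 15.0% of the 16604 genes tested. At 500 nM it was called for 5: positive for PPAT, CAD, PAICS and UMPS (4 of 9, against 28.2% of genes) and negative for IMPDH2 (1 of 9, against 18.1%). On log2(TPM + 1), where the median gene differed by 0.38 between the lines and 9104 genes were called positive and 1112 negative, it was positive and called for 8 of the 9 and negative for 0 (limma). PPAT differed most, by 0.66 ± 0.10 at 150 nM and 0.81 ± 0.10 at 500 nM (edgeR adjusted p = 2.5e-05 and 2.5e-07). CAD differed by 0.43 and 0.69 and PAICS by 0.54 and 0.50.

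ATIC and GART differed between lines at 150 nM, by 0.49 and 0.33, and were not called at 500 nM. The 500 nM difference of ATIC was 0.12, with a 95% interval from -0.14 to 0.39 (edgeR adjusted p = 0.45), and that of GART 0.18 (adjusted p = 0.051), which passed at 0.033 without the second 500 nM library of OCI-Ly1 and at 0.028 without the third DMSO library of TMD8. The GART difference also passed with DESeq2 (0.21, adjusted p = 0.017), with DESeq2 size factors (adjusted p = 0.042), with the replicate block (0.041) and with limma on log2(TPM + 1), centred (0.04) or not (0.62, adjusted p = 0.00011). On uncentred log2(TPM + 1) that of ATIC was 0.60 (limma adjusted p = 0.0064). IMPDH2 fell more in OCI-Ly1 at 500 nM, by -0.28 ± 0.07 (adjusted p = 0.0024), but on log2(TPM + 1), where the median gene was shifted by 0.38, the difference was 0.20 (adjusted p = 0.13). The difference of TYMS at 150 nM, 0.29 (adjusted p = 0.031), was lost without OCI-Ly1 DMSO library 1 or 3, OCI-Ly1 150 nM library 1 or 3, TMD8 DMSO library 1 or TMD8 150 nM library 3 (0.064 to 0.12), and with library size as the only scaling (0.11). That of UMPS at 500 nM, 0.24 (0.014), was lost without the third 500 nM library of TMD8 (0.051).

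**Figure D4:**
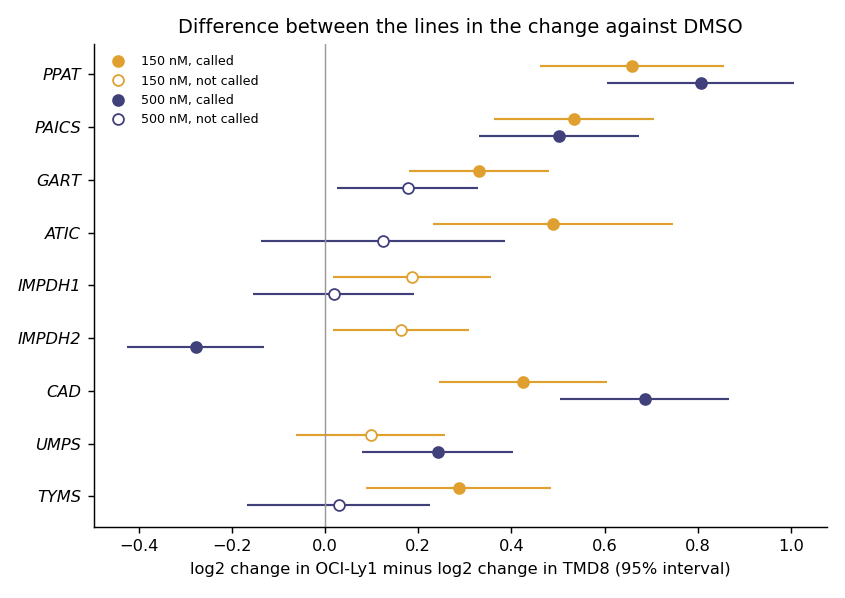
Difference between lines (horizontal axis: log2 change of OCI-Ly1 less the log2 change of TMD8, with 95% interval) for each of the 9 genes, 150 nM in yellow and 500 nM in blue; filled points passed the edgeR adjusted p threshold of 0.05. PPAT lies farthest right, at 0.81 for 500 nM, and IMPDH2 at 500 nM is the called point left of 0, at -0.28, which turns to 0.20 on log2(TPM + 1).

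By the 4 changes against DMSO, the closest pairs among the 9 were GART with UMPS (root mean square distance 0.12 on the log2 scale) and PPAT with CAD (0.13). PPAT and PAICS, the genomic neighbours, were 0.15 apart, ATIC and IMPDH1 0.16, and TYMS was 0.30 from its nearest, UMPS. Of 10281 other genes with at least 5 CPM in some group of each line, MRPL33, STMN1 and GCNT2 lay closest to the median profile of the 9, at distances of 0.021, 0.022 and 0.028. These distances rest on 4 changes, with DMSO shared within a line, and are descriptions.

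MYC fell in TMD8 and rose in OCI-Ly1 at 500 nM. It went from 347.9 ± 16.5 CPM (SD, n = 3) through 224.1 ± 16.2 to 155.4 ± 4.37 with dose in TMD8, and from 315.5 ± 15.2 to 298.9 ± 5.26 and 399.1 ± 9.38 in OCI-Ly1. Its 500 nM log2 change was -1.16 in TMD8 and 0.34 in OCI-Ly1 (edgeR adjusted p = 1.1e-11 and 1.1e-05). Of the 3 genes with CACGTG in a window, PPAT was at -0.85 in TMD8 and -0.07 in OCI-Ly1 (not called, and 0.06 on log2(TPM + 1)), PAICS at -0.82 and -0.35, and ATIC at -0.77 and -0.68. Of the genes whose windows lacked it, CAD was at -0.72 in TMD8 and -0.07 in OCI-Ly1, and IMPDH1 at -0.59 and -0.60. GART was at -0.43 and -0.28, UMPS at -0.35 and -0.14, and TYMS at 0.12 (-0.25 on log2(TPM + 1)) and 0.12. In OCI-Ly1 CAD, UMPS and TYMS were not called. IMPDH2, which had no window, was at -0.246 and -0.555. Of the 4 proliferation markers, MKI67 (-1.04), TOP2A (-1.38) and MCM2 (-0.60) fell in TMD8 at 500 nM, and PCNA was called higher at 0.25. On log2(TPM + 1), where the median gene moved by -0.22, PCNA was at -0.12 (limma adjusted p = 0.37). After centring each library it was at 0.13 (limma adjusted p = 0.078). In OCI-Ly1 MKI67 (-0.49) and TOP2A (-0.58) fell, and PCNA (0.08, edgeR adjusted p = 0.2) and MCM2 (0.00, adjusted p = 0.95) were not called. The part of MYC or of these markers in the changes of the 9 genes was not tested.

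Across the wider pathways, 9 lists held 84 genes, the 9 included. In TMD8 at 500 nM 12 of 72 tested were called higher and 50 lower, with a median of -0.42, and in OCI-Ly1 11 of 73 were higher and 33 lower, with a median of -0.14. Without the 9, the counts were 11 and 42 of 63 in TMD8 and 11 and 28 of 64 in OCI-Ly1. Over all genes, 29.9% were called higher and 30.7% lower in TMD8, and 27.7% and 25.9% in OCI-Ly1. On log2(TPM + 1) the 9 lists gave 5 higher and 57 lower in TMD8, and 20 and 21 in OCI-Ly1. All genes on that scale gave 1751 higher and 7581 lower in TMD8, and 5739 and 2240 in OCI-Ly1. With library size as the only scaling the lists gave 15 and 46 in TMD8, and 18 and 25 in OCI-Ly1. All genes then gave 5679 higher and 3883 lower of 15363 in TMD8, and 5472 and 3080 of 15638 in OCI-Ly1.

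For the genes that supply PRPP and deoxynucleotides, the difference between lines at 500 nM was called positive for all 4 PRPP genes, and positive for 5 and negative for 1 of the 10 deoxynucleotide genes, where 28.2% and 18.1% of all genes were. All 4 PRPP synthetase and associated genes were called lower in TMD8 at 500 nM, led by PRPS2 at -0.78, whereas in OCI-Ly1 PRPSAP1 (0.50) and PRPS2 (0.15) were higher and PRPS1 (-0.24) lower, the last not called on log2(TPM + 1) and PRPS2 not called without the low-count filter. Of the 10 thymidylate and deoxynucleotide genes, 8 were lower and 2 higher in TMD8, and 5 lower and 1 higher in OCI-Ly1. For these counts and those of the PRPP genes, all genes stood at 30.7% lower and 29.9% higher in TMD8 and 25.9% and 27.7% in OCI-Ly1. RRM2, the small subunit of ribonucleotide reductase in dividing cells, was called lower in both, at -0.14 in TMD8 and -0.21 in OCI-Ly1; the first call was lost with library size as the only scaling (adjusted p = 0.31) and the second on log2(TPM + 1) (limma adjusted p = 0.31). RRM2B, the p53-inducible small subunit, rose in TMD8 from 67.1 ± 4.18 to 126.7 ± 2.94 CPM (SD, n = 3) and fell in OCI-Ly1 from 403.5 ± 29.8 to 266.5 ± 8.13, with a difference between lines of -1.49 (edgeR adjusted p = 2.3e-12).

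Folate one-carbon genes, which supply the carbons used by GART, ATIC and TYMS, included large rises. In OCI-Ly1 at 500 nM 4 of 10 were called higher and 2 lower, where 27.7% and 25.9% of all genes were. MTHFD2, a mitochondrial folate enzyme, rose from 276.4 ± 6.06 to 664.0 ± 28.9 CPM (SD, n = 3), and SHMT2, the mitochondrial serine hydroxymethyltransferase, from 456.0 ± 6.13 to 817.8 ± 36.2. In TMD8 those genes were at 0.07 (edgeR adjusted p = 0.24) and -0.04 (adjusted p = 0.48), and the differences between lines were 1.22 and 0.91 (adjusted p = 4.2e-12 and 1.4e-10). ALDH1L2, a mitochondrial formyl-folate dehydrogenase, rose in both lines, by 1.08 in OCI-Ly1 and 2.84 in TMD8. SLC19A1, the reduced folate carrier, fell by 1.26 in TMD8, and MTHFD1, the cytosolic enzyme, fell by 0.87 there and 0.27 in OCI-Ly1, the latter not called on log2(TPM + 1) (limma adjusted p = 0.067).

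Of 11 salvage genes, 7 were lower and 1 higher in TMD8 at 500 nM, and 5 lower and 1 higher in OCI-Ly1, where all genes stood at 30.7% lower and 29.9% higher in TMD8 and 25.9% and 27.7% in OCI-Ly1. HPRT1, the hypoxanthine salvage enzyme, fell by 0.81 in TMD8 and 0.52 in OCI-Ly1, and APRT, its adenine counterpart, by 0.90 and 0.82. TK1, the cytosolic thymidine kinase, was at -0.39 in TMD8 and -0.06 (edgeR adjusted p = 0.47) in OCI-Ly1, and TK2, the mitochondrial one, rose in both, by 0.93 and 1.55. Among breakdown genes, PNP fell by 0.97 in TMD8 and 0.70 in OCI-Ly1, and uridine phosphorylase UPP1 rose by 1.81 and 1.57, from a TMD8 level of 0.526 ± 0.219 CPM (SD, n = 3). Of the nucleoside transporters, SLC29A2 fell in both lines, by 0.64 in TMD8 and 0.55 in OCI-Ly1. The plot of the pathway lists sets these beside the 9 enzymes.

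**Figure D5:**
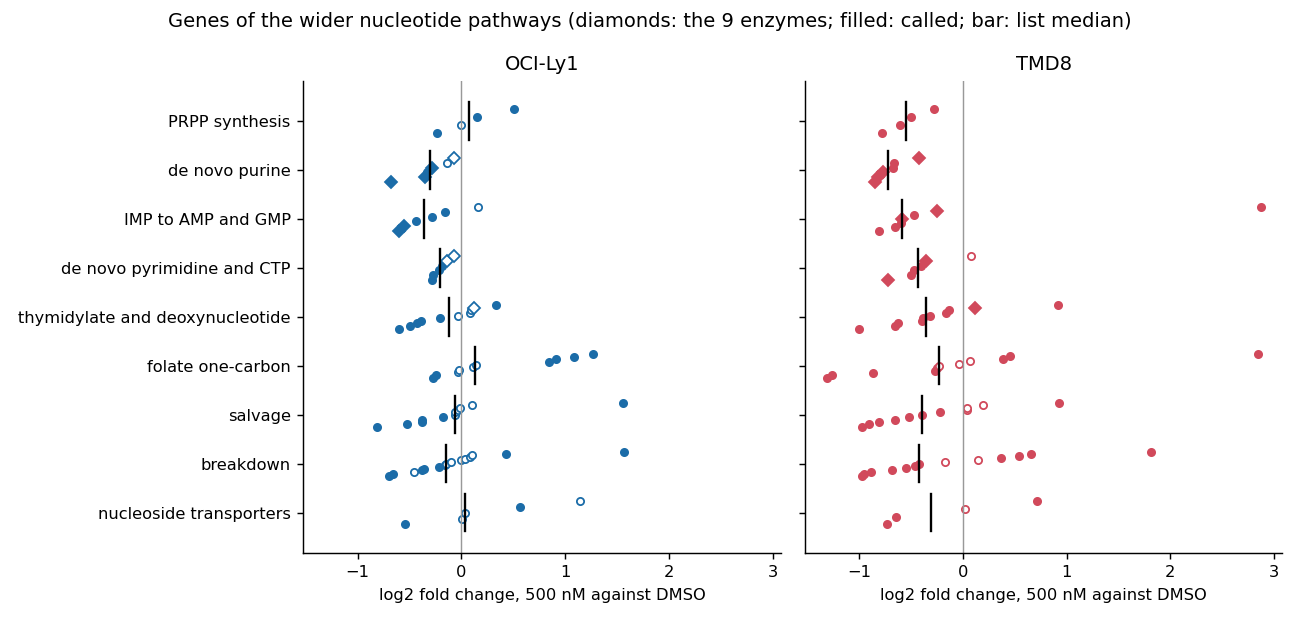
Log2 fold change at 500 nM against DMSO (horizontal axis) of the tested genes of 9 pathway lists (rows), OCI-Ly1 left and TMD8 right; diamonds are the 9 enzymes, filled symbols passed the edgeR adjusted p threshold of 0.05 and black bars are list medians. The purine list has medians of -0.31 in OCI-Ly1 and -0.72 in TMD8, and the folate list spreads to rises of 1.27 and 2.84.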

How the data were processed

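Total RNA of 18 libraries, 3 per group in 6 groups, was ribosome-depleted, and libraries were read as paired ends, per the labels' protocols. The authors deposited, for each line, kallisto estimated counts and TPM per gene symbol; kallisto 0.46.0, R 4.3.1, DESeq2 1.40.2 and build hg19 are named in the submitters' processing notes, without roles. The deposited estimated counts need not be whole, and were rounded. The deposited TPM summed to 1000000 per library and were used for levels, ratios and alternatives. How transcripts were joined to genes and whether strand was used are not given in the sources used here. No gene coordinates are given on hg19; promoter windows are RefSeq's on GRCh38.p14, and a table of proteins was not used here.

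Counts were scaled by TMM, filtered by filterByExpr and fitted with edgeR 4.0.16 under R 4.3.3 (glmQLFit and glmQLFTest, quasi-likelihood). The 9 libraries of a line were fitted together, and all 18 for differences between lines. The p-values were adjusted by Benjamini-Hochberg over all tested genes, and SE is the log2 fold change divided by the root of F. Alternatives were other scalings and filters, DESeq2 1.42.0, limma 3.58.1 on log2(TPM + 1) and log2(TPM + 0.1), uncentred and centred, a replicate block, added counts of IMPDH1 with IMPDH2 and TYMS with ENOSF1, and each library left out. The edgeR fit was tested on simulated data. Libraries of a group differed by more than sampling noise in all 18 pairs (chi-square per degree of freedom from 1.62 to 10.9).

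The members and lists were chosen with earlier results of these data known. Named genes were the 9, 10 fixed context genes, at most 2 called rises and 2 called falls per pathway list and line with at least 1 CPM, the marker genes and the 3 nearest profiles; SHMT2, CTPS2 and CMPK1 were added after their values were seen. Some genes of these lists are not reported here. Depth limits low genes only: the lowest group mean among the 9 was 27.8 CPM.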

Additional observations from a re-analysis of the deposited data

Results flagged for a closer look

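The change against DMSO differed between the lines for 6 of the 9 genes at 150 nM and 5 at 500 nM, by the edgeR test of the difference itself (OCI-Ly1 minus TMD8, log2, adjusted p under 0.05). Of the 16604 genes tested, 2484 (15.0%) were called positive and 1383 negative at 150 nM. The shares at 500 nM were 28.2% positive and 18.1% negative. At 150 nM the differences were 0.659 for PPAT, 0.535 for PAICS, 0.489 for ATIC, 0.425 for CAD, 0.33 for GART and 0.287 for TYMS. At 500 nM they were 0.806 for PPAT, 0.687 for CAD, 0.502 for PAICS, 0.242 for UMPS and -0.278 for IMPDH2. Line and culture medium changed together, so their parts cannot be told apart.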

How the results depend on the processing

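Of the 56 called member values (9 genes, 9 comparisons), alternatives were run 922 times: 858 kept the direction and the threshold, 50 lost the threshold and 14 reversed; the cause was not tested. Most reversals of called values were on uncentred TPM between lines with DMSO. There log2(TPM + 1) and log2(TPM + 0.1) gave 0.707 and 0.736 for PPAT, 0.566 and 0.57 for PAICS, 0.35 and 0.357 for IMPDH1, 0.032 and 0.033 for CAD and 0.395 and 0.437 for UMPS. TPM also gave 0.198 and 0.202 for the IMPDH2 difference between lines at 500 nM and -0.25 and -0.253 for TYMS in TMD8 at 500 nM. Values without a call that changed sign were IMPDH2 between lines with DMSO (-0.089 with IMPDH counts added) and, in OCI-Ly1 at 500 nM against DMSO, CAD (0.02 with library size only, 0.07 and 0.072 on TPM) and PPAT (0.014, 0.064 and 0.066); at 500 against 150 nM, TYMS (0.051, 0.08 and 0.083, and -0.134 to 0.044 without single libraries) and UMPS (0.03, 0.05 and 0.055). GART in OCI-Ly1 at 150 nM became 0.006 with library size or DESeq2 size factors, 0.007 with DESeq2, 0.008 without a filter, 0.025 on both TPM scales and -0.014 to 0.012 without single libraries, PAICS there became -0.006, -0.026 and -0.031 (up to 0.058) and ATIC -0.094 (up to 0.185). At 500 nM the difference between lines of IMPDH1 became -0.018 with library size and -0.022 to 0.046 without single libraries. That of TYMS became -0.008 with library size and -0.013 to 0.09 without single libraries. With IMPDH counts added the 500 nM difference was -0.19 (called). That value and the -0.089 between lines with DMSO are of both IMPDH genes together, not of either gene.

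Counts of members called that moved by over 1.5 times, and some smaller moves, were these. Lower in TMD8 at 150 nM was 7 with library size only, lower in OCI-Ly1 at 500 nM was 6 on centred TPM, and the difference at 150 nM was higher for 8 on all TPM settings and 7 with DESeq2. Higher in OCI-Ly1 at 500 nM was 1 on both TPM scales. Higher in TMD8 at 500 nM was 0 with DESeq2, its size factors, no filter and all TPM settings, and at 500 against 150 nM 0 on uncentred TPM. The difference at 500 nM was higher for 8 and lower for 0 on uncentred TPM. Between lines with DMSO, 2 were higher with DESeq2, library size or centred TPM, and 6 higher and 2 lower on uncentred TPM. Leaving out each library gave 5 to 6 lower for OCI-Ly1 and 8 each time for TMD8 at 500 nM, 0 to 1 higher for TMD8, 0 to 1 and 8 to 9 lower at 150 nM, 5 to 7 and 4 to 7 lower between doses, 5 to 6 and 3 to 5 higher for the differences at 150 and 500 nM, and 1 to 2 higher between lines. Same-numbered libraries showed little shared deviation (correlations of -0.046 to 0.146 for OCI-Ly1 and -0.055 to 0.141 for TMD8, 2 of 9 pairs over 0.1 in each). In both lines the pairs over 0.1 were DMSO with 150 nM, for numbers 1 and 3. With the replicate number as a block, the members called lower at 500 nM were 5 in OCI-Ly1 and 8 in TMD8, as without it, and the GART difference at 500 nM passed (adjusted p = 0.041).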
